A study of Homo sapiens with 15 samples.

Results

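The genes described here encode the ligands, latency proteins, receptors, SMADs and feedback regulators of transforming growth factor-β (TGF-β) signaling, with the activin ligands and their antagonists that share its SMADs. The members were taken by gene symbol from a list of 34, of which 33 were found among the 18179 genes of the deposited tables, and LRRC32 was not analysed here. By role the list held 3 ligands, 5 latency proteins, 4 genes of the activin axis, 8 receptors, 4 genes of SMAD2, SMAD3, SMAD4 and their receptor adaptor, and 10 feedback genes. The study was designed to find genes that respond to near-infrared-emitting silver sulfide nanoparticles (NPs) in skin cells.

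RNA was sequenced from HaCaT, an established line of human skin keratinocytes that grows without limit, so that every group stands for a single line. The 5 groups held 3 libraries each. The control was untreated (replicates 1, 2 and 3). The other groups had been exposed for 24 h to plain Ag2S NPs, at 160 μg/mL (replicates 4, 5 and 6) or 320 μg/mL (replicates 7, 8 and 9), or to Ag2S NPs doped with lithium, at 160 μg/mL (replicates 10, 11 and 12) or 320 μg/mL (replicates 13, 14 and 15). All groups were grown in high-glucose medium with fetal bovine serum. No source used here states that the libraries of a group were separate cultures, so the p-values measure the spread between these libraries, which may be technical.

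TGF-β is secreted in a latent complex with latency-associated peptide and a latent TGF-β binding protein, and is set free by integrins, thrombospondin and proteases. The free ligand brings together the receptors TGFBR2 and TGFBR1, which phosphorylate SMAD2 and SMAD3. These join SMAD4 and enter the nucleus, where they also induce inhibitors of the pathway such as SMAD7 and PMEPA1. Activins signal through their own receptors to the same SMADs and are bound by follistatins. In keratinocytes TGF-β is known to restrain growth and to induce matrix and migration genes.

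Values are FPKM (fragments per kilobase of transcript, scaled to the fragments mapped in a library), and fold changes are log2 differences of FPKM + 0.1, a scale that understates the change of low genes. Genes with an adjusted p under 0.05 in limma (Benjamini and Hochberg, over all genes tested) are said to have risen or fallen. Summed FPKM per library lay between 582451 and 698579, the depth behind the values is unknown, and replicate 15 stood apart with the highest sum. Over the whole table tested, the median change on the log2 scale was -0.14 and -0.19 with Ag2S NPs and -0.19 and -0.26 with Li-doped Ag2S NPs at 160 and 320 μg/mL, and -0.01 to -0.03 after scaling by median ratio, so counts after this scaling are given beside the others. All 10 keratinocyte markers were present, with summed FPKM of 9593 to 9980 in control and 11690 to 31574 in the treated groups. These sums were mostly KRT5 and KRT14, and single markers differed in direction. With Li-doped Ag2S NPs at 160 μg/mL 5 of the 10 rose and 4 fell, where 22.6% and 40.6% of all genes did so. There mean KRT14 went from 2635 FPKM in control to 5167, and mean KRT1 from 84.5 to 7.52. Of 8 fibroblast markers 7 were in the tables. Their sum went from 13 to 16.2 in control down to 2.11 to 7.84 in treated libraries, mostly through LUM and DCN. DPT and COL6A3 were at 0 in control. Other markers of this list did not fall in every treated group. PDGFRA, near the bottom of the range, had a mean of 0.06 FPKM in control and 0.00333 to 0.183 in the treated groups. TWIST2 had a mean of 2.11 FPKM in control and 1.96 to 3.03 in the treated groups. PDGFRB went from 0.00667 in control to 0.417 with Li-doped Ag2S NPs at 160 μg/mL, where COL6A3 was at 0.0967. The endothelial sum was 3.47 to 4.01 in control and 0.15 to 0.81 in treated libraries, where CDH5 made up the difference and PECAM1 was at 0 in every treated library. The melanocyte sum was 1.86 to 3.37 in all libraries. The macrophage and leukocyte sum, mostly CD68, was 9.78 to 29.6. The part of such cells in the results below was not tested, and in bulk RNA fewer cells of a type and less RNA per cell cannot be told apart.

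The genes that rose most in this pathway were antagonists and feedback inhibitors together with the ligand TGFB1, while SMAD3 and the repressor TGIF2 fell in every treated group. FST, FSTL3, PMEPA1 and TGFB1 rose with both particles at both doses, whichever library was left out. INHBA, ACVR1B and TGIF1 were also called up in every comparison with control, but each lost some of these calls when a library was left out. Of the 33 genes, 28 passed the filter of a mean FPKM of at least 1 at 160 μg/mL and 27 at 320 μg/mL. The others, TGFB2, TGFB3, TGFBR3, ENG and INHBB, and at 320 μg/mL also ACVR2B, are described by their values.

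With Ag2S NPs at 160 μg/mL, 9 members rose and 2 fell (14 and 2 after scaling), where 11.5% of all genes tested rose and 23.8% fell, 35.2% in all. At 320 μg/mL Ag2S NPs raised 14 members and lowered 3 (17 and 2 after scaling), where 16.2% of all genes rose and 36.2% fell, 52.4% in all. Li-doped Ag2S NPs at 160 μg/mL raised 11 members and lowered 6 (13 and 4 after scaling), where 22.6% and 40.6% of all genes did so, 63.3% in all. At 320 μg/mL they raised 11 and lowered 8 (12 and 3 after scaling), where the background was 17.0% and 44.6%, or 61.6% in all. Among the members tested the median of the log2 fold changes was 0.17, 0.22, -0.03 and -0.22 in the same order, and 0.30, 0.39, 0.14 and 0.03 after scaling. These 4 comparisons use the same control libraries and are not independent of each other. The calls of 7, 13, 14 and 13 members, respectively, were kept whichever library was left out.

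**Figure D1:**
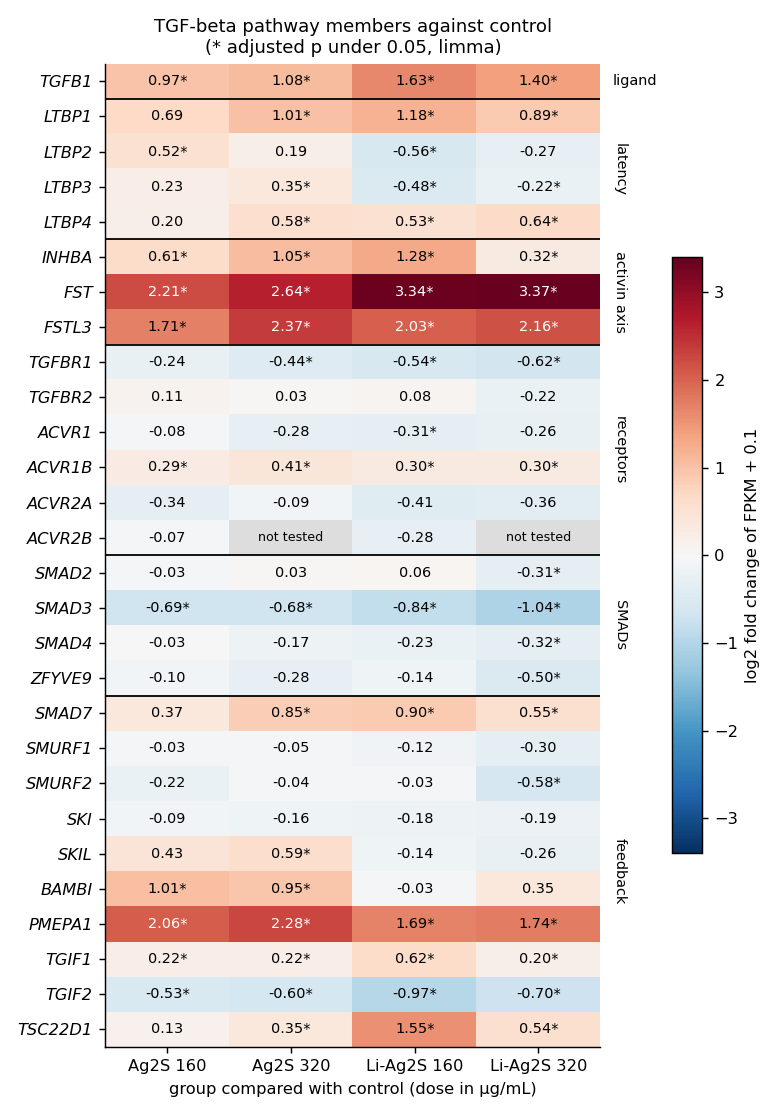
Heat map of the log2 fold change of FPKM + 0.1 against control (color and number) for the members tested, in rows grouped by role, and the 4 treated groups in columns. Stars mark an adjusted p under 0.05 in limma. FST, FSTL3 and PMEPA1 hold the highest values, SMAD3 and TGIF2 are below 0 in every column, and BAMBI, SKIL, LTBP2 and LTBP3 lie higher with Ag2S NPs than with Li-doped Ag2S NPs.

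TGFB1 was the one ligand gene of the family well above the filter. It lies on chromosome 19 from 41301587 to 41353911 of GRCh38 (GENCODE release 29) and encodes TGF-β1, the best known isoform. Its FPKM was 25.4, 24.6 and 22.7 in control, 44.2, 51.6 and 46.9 with Ag2S NPs at 160 μg/mL, 49.6, 50.3 and 53.9 with Ag2S NPs at 320 μg/mL, 77.0, 64.0 and 85.7 with Li-doped Ag2S NPs at 160 μg/mL and 68.1, 57.5 and 67.2 with Li-doped Ag2S NPs at 320 μg/mL. Every treated library was above every control library, and every library with Li-doped Ag2S NPs was above every library with Ag2S NPs. TGFB1 had log2 fold changes of 0.97 and 1.08 with Ag2S NPs and 1.63 and 1.40 with Li-doped Ag2S NPs at 160 and 320 μg/mL (SE 0.11, 0.08, 0.11 and 0.08). For TGFB1 the limma adjusted p were 0.000115, 1.24e-06, 3.01e-07 and 1.43e-07. An exon of TGFB1 overlaps one of HNRNPUL1 on the other strand, and the sources do not state that the counting used the strand, so reads there cannot be assigned with certainty.

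TGFB2 and TGFB3 were near the bottom of the range. TGFB2, the isoform linked to migration of keratinocytes at wound edges, had FPKM of 0, 0 and 0.12 in control, 0.12, 0.05 and 0.04 with Ag2S NPs at 160 μg/mL, 0.36, 1.08 and 0.07 with Ag2S NPs at 320 μg/mL, 0.54, 1.19 and 1.61 with Li-doped Ag2S NPs at 160 μg/mL and 0.33, 0.13 and 0 with Li-doped Ag2S NPs at 320 μg/mL. Its 3 libraries with Li-doped Ag2S NPs at 160 μg/mL were above all control libraries and overlapped only those with Ag2S NPs at 320 μg/mL. Without the filter on low values its log2 fold change there was 3.11 (SE 0.44, limma adjusted p = 0.000295). TGFB3, an isoform of scarless healing in fetal skin, had FPKM of 1.22, 1.13 and 0.7 in control, 0.33, 0.55 and 0.2 with Ag2S NPs at 160 μg/mL, 0.46, 0.48 and 0.69 with Ag2S NPs at 320 μg/mL, 0.48, 0.31 and 0.33 with Li-doped Ag2S NPs at 160 μg/mL and 0.64, 0.45 and 0.95 with Li-doped Ag2S NPs at 320 μg/mL. All groups except Li-doped Ag2S NPs at 320 μg/mL were below control without overlap. In the fit without the filter the log2 differences were -1.32 (SE 0.35, limma adjusted p = 0.0268) and -1.22 (SE 0.35, limma adjusted p = 0.0172) at 160 μg/mL for the plain and the doped particle. At 320 μg/mL they were -0.78 (SE 0.33, limma adjusted p = 0.0938) and -0.53 (SE 0.33, limma adjusted p = 0.229). An exon of TGFB3 overlaps the antisense gene TGFB3-AS1, and TGFB2 shares exons with TGFB2-OT1.

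The latent TGF-β binding proteins differed in direction. LTBP1, which ties latent TGF-β to the matrix, had low FPKM of 0.75, 1.68 and 1.12 in control, 2.13, 2.1 and 1.48 with Ag2S NPs at 160 μg/mL, 2.82, 2.16 and 2.17 with Ag2S NPs at 320 μg/mL, 2.16, 3.52 and 2.51 with Li-doped Ag2S NPs at 160 μg/mL and 1.77, 3.55 and 1.61 with Li-doped Ag2S NPs at 320 μg/mL. Libraries with Ag2S NPs at 320 μg/mL and Li-doped Ag2S NPs at 160 μg/mL were above all control libraries, while the other treated groups overlapped control. LTBP1 had log2 fold changes of 0.69 and 1.01 with Ag2S NPs and 1.18 and 0.89 with Li-doped Ag2S NPs at 160 and 320 μg/mL (SE 0.31, 0.34, 0.31 and 0.34). For LTBP1 the limma adjusted p were 0.1, 0.0265, 0.00605 and 0.0386. The rise at 320 μg/mL was lost with Ag2S NPs without replicate 1, 3, 7, 8 or 9 (0.74 to 1.07, adjusted p = 0.0506 to 0.104) and with Li-doped Ag2S NPs without replicate 1, 3, 8, 9 or 14 (0.54 to 0.89, adjusted p = 0.0511 to 0.157), and both were lost without the filter. LTBP4, the form expressed most strongly here, rose by 0.58 (SE 0.07) with Ag2S NPs at 320 μg/mL and by 0.53 (SE 0.14) and 0.64 (SE 0.07) with Li-doped Ag2S NPs at 160 and 320 μg/mL, from 61.8 ± 3.95 FPKM in control to 92.4 ± 6.38, 89.2 ± 8.21 and 96.1 ± 3.99 (SD, n = 3).

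LTBP2 and LTBP3 separated the particles. LTBP3 had a mean FPKM of 47.5 ± 2.22 in control, 55.7 ± 4.35 and 60.8 ± 3.39 with Ag2S NPs and 34.3 ± 4.62 and 40.7 ± 1.85 with Li-doped Ag2S NPs at 160 and 320 μg/mL (SD, n = 3). It rose with Ag2S NPs at 320 μg/mL by 0.35 (SE 0.07, limma adjusted p = 0.00143) and fell with Li-doped Ag2S NPs at 160 μg/mL, with a log2 fold change of -0.48 (SE 0.10, limma adjusted p = 0.00196), or -0.31 after scaling. Its fall with Li-doped Ag2S NPs at 320 μg/mL, -0.22 (SE 0.07), became 0.02 after scaling by median ratio and was also lost without replicate 1, 2 or 13 (-0.21 to -0.20, adjusted p = 0.0524 to 0.0625). LTBP2, a matrix protein of elastic fibers that does not bind latent TGF-β, rose with Ag2S NPs at 160 μg/mL by 0.52 (SE 0.17) and fell with Li-doped Ag2S NPs at 160 μg/mL, -0.56 (SE 0.17). The rise was lost without replicate 2, 3, 4 or 5 (0.46 to 0.50, adjusted p = 0.0845 to 0.107), and the fall was lost after scaling and without replicate 1 or 10 (-0.47 to -0.41, adjusted p = 0.0531 to 0.0547).

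In the activin axis, the ligand gene and its antagonists rose together, the antagonists by more. FST encodes follistatin, which binds activin and keeps it from its receptors, and lies on chromosome 5 from 53480409 to 53487134. Its FPKM was 4.79, 3.41 and 3.89 in control, 18.0, 19.3 and 19.1 with Ag2S NPs at 160 μg/mL, 27.7, 21.1 and 28.2 with Ag2S NPs at 320 μg/mL, 43.9, 43.5 and 36.6 with Li-doped Ag2S NPs at 160 μg/mL and 47.4, 43.6 and 36.2 with Li-doped Ag2S NPs at 320 μg/mL. All treated libraries lay above control, and the 6 libraries with Li-doped Ag2S NPs lay above the 6 with Ag2S NPs. Mean FPKM was 4.67 and 6.37 times control with Ag2S NPs and 10.3 and 10.5 times control with Li-doped Ag2S NPs at 160 and 320 μg/mL. FST had log2 fold changes of 2.21 and 2.64 with Ag2S NPs and 3.34 and 3.37 with Li-doped Ag2S NPs at 160 and 320 μg/mL (SE 0.13, 0.15, 0.13 and 0.15). For FST the limma adjusted p were 1.27e-06, 1.44e-07, 5.24e-09 and 1.99e-08.

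FSTL3, a follistatin-like antagonist of activin, lies on chromosome 19 from 676365 to 683399 and had FPKM of 10.4, 10.3 and 9.14 in control, 32.1, 36.8 and 29.7 with Ag2S NPs at 160 μg/mL, 53.2, 48.7 and 53.9 with Ag2S NPs at 320 μg/mL, 45.2, 38.5 and 39.6 with Li-doped Ag2S NPs at 160 μg/mL and 45.7, 42.9 and 46.2 with Li-doped Ag2S NPs at 320 μg/mL. Its highest libraries were those with Ag2S NPs at 320 μg/mL, and those with Ag2S NPs at 160 μg/mL were the lowest of the treated ones. FSTL3 had log2 fold changes of 1.71 and 2.37 with Ag2S NPs and 2.03 and 2.16 with Li-doped Ag2S NPs at 160 and 320 μg/mL (SE 0.10, 0.08, 0.10 and 0.08). For FSTL3 the limma adjusted p were 1.7e-06, 3.37e-09, 4.22e-08 and 4.53e-09. Cufflinks divided the gene between ENST00000166139, which has 5 exons, and ENST00000592947, which has 3. ENST00000166139 had FPKM of 5.43, 5.16 and 4.7 in control, 30.3, 34.7 and 27.8 with Ag2S NPs at 160 μg/mL, 47.2, 45.1 and 49.8 with Ag2S NPs at 320 μg/mL, 36.8, 31.5 and 27.0 with Li-doped Ag2S NPs at 160 μg/mL and 38.2, 37.3 and 42.7 with Li-doped Ag2S NPs at 320 μg/mL. Every treated library was above control. It rose by 2.57, 3.19, 2.61 and 2.93 against control in the order Ag2S NPs at 160 and 320 μg/mL and Li-doped Ag2S NPs at 160 and 320 μg/mL. Its share of the summed FPKM of the gene's transcripts was 51.2% ± 0.912 in control and 94.0% ± 0.356, 91.3% ± 2.22, 77.1% ± 7.76 and 87.6% ± 4.44 in those groups (SD, n = 3). ENST00000592947 passed the test in none of the 4 comparisons with control, and its libraries with Li-doped Ag2S NPs at 160 μg/mL ranged from 0.19 to 9.96 FPKM. Among all transcripts tested, 5.66%, 17.5%, 27.5% and 22.8% passed the test in these comparisons.

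INHBA, whose product forms activin A, lies on chromosome 7 from 41667168 to 41705834. Its FPKM was 12.7, 12.9 and 13.2 in control, 23.8, 20.4 and 16.1 with Ag2S NPs at 160 μg/mL, 29.6, 26.4 and 25.0 with Ag2S NPs at 320 μg/mL, 31.3, 31.4 and 31.8 with Li-doped Ag2S NPs at 160 μg/mL and 18.2, 17.9 and 12.9 with Li-doped Ag2S NPs at 320 μg/mL. Every treated group except Li-doped Ag2S NPs at 320 μg/mL was above control without overlap, and the highest libraries were those with Li-doped Ag2S NPs at 160 μg/mL. INHBA had log2 fold changes of 0.61 and 1.05 with Ag2S NPs and 1.28 and 0.32 with Li-doped Ag2S NPs at 160 and 320 μg/mL (SE 0.12, 0.13, 0.12 and 0.13). For INHBA the limma adjusted p were 0.00377, 4.44e-05, 5.25e-06 and 0.0469. The rise with Li-doped Ag2S NPs at 320 μg/mL, where replicate 15 was at control level, was lost without replicate 1, 2, 3, 7, 8, 9, 13 or 14 (0.23 to 0.33, adjusted p = 0.0519 to 0.169), and also without the filter and in the fits of the compared groups alone or of all 15 libraries, while after scaling it was 0.56 (adjusted p = 0.00101). INHBB, the gene of the other activin subunit, had at most 0.06 FPKM in any library.

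**Figure D2:**
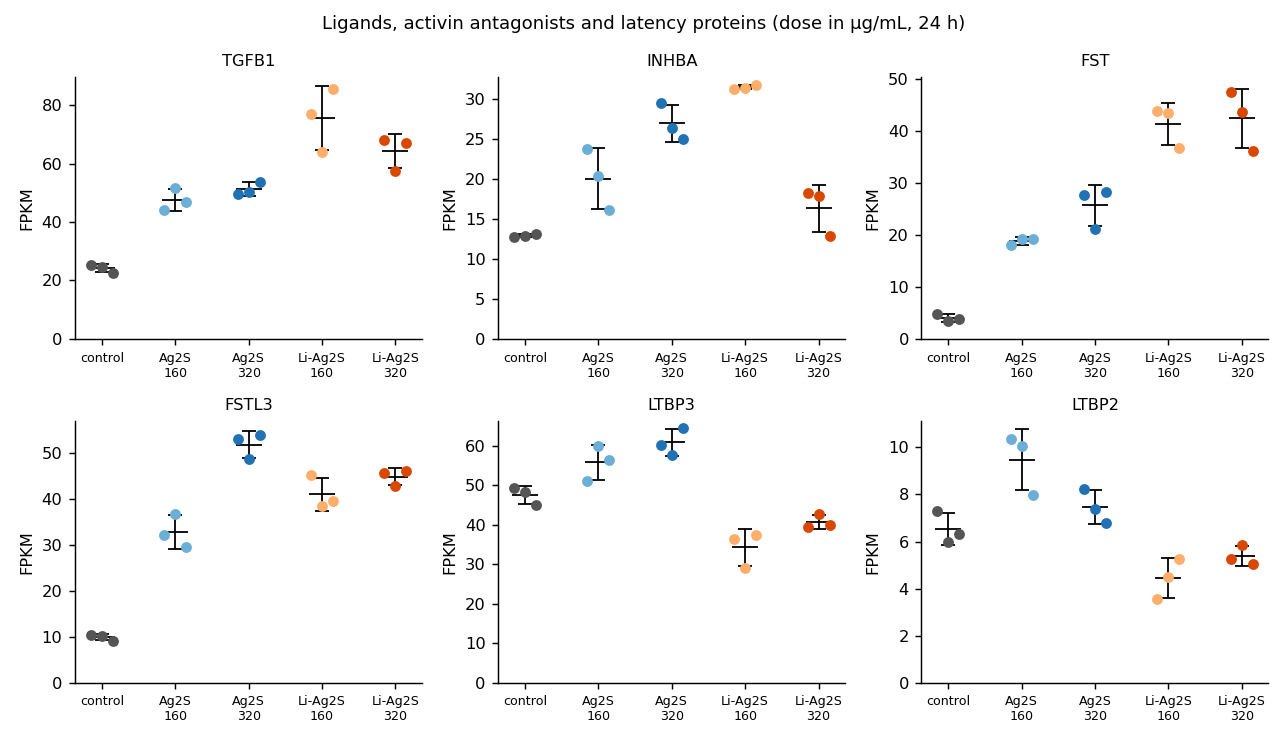
FPKM of TGFB1, INHBA, FST, FSTL3, LTBP3 and LTBP2 (vertical axes, from 0) in each library (points) of the 5 groups, with the mean and SD of 3 libraries (bars). TGFB1, FST and FSTL3 are above control in every treated library, INHBA is highest with Li-doped Ag2S NPs at 160 μg/mL, and LTBP3 lies lower with Li-doped Ag2S NPs than with Ag2S NPs.

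Of the receptor genes, TGFBR1 fell and ACVR1B rose in several comparisons, while TGFBR2 did not pass the test in any comparison with control. TGFBR1 encodes the type I receptor kinase that phosphorylates SMAD2 and SMAD3 and had FPKM of 14.9, 16.9 and 14.4 in control, 14.6, 13 and 11.5 with Ag2S NPs at 160 μg/mL, 13.8, 11.2 and 9.29 with Ag2S NPs at 320 μg/mL, 9.99, 10.8 and 10.8 with Li-doped Ag2S NPs at 160 μg/mL and 10.9, 11.7 and 7.73 with Li-doped Ag2S NPs at 320 μg/mL. All groups except Ag2S NPs at 160 μg/mL were below control without overlap. TGFBR1 had log2 fold changes of -0.24 and -0.44 with Ag2S NPs and -0.54 and -0.62 with Li-doped Ag2S NPs at 160 and 320 μg/mL (SE 0.11, 0.17, 0.11 and 0.17). For TGFBR1 the limma adjusted p were 0.107, 0.049, 0.00143 and 0.00886. Its fall with Li-doped Ag2S NPs at 160 μg/mL held after scaling (-0.37), while those at 320 μg/mL became -0.28 with Ag2S NPs and -0.38 with Li-doped Ag2S NPs and were lost. With Ag2S NPs at 320 μg/mL the call was also lost without replicate 1, 2, 3, 8, 9 or 13 (-0.49 to -0.31, adjusted p = 0.0576 to 0.185).

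TGFBR2, which encodes the ligand-binding type II receptor, had FPKM of 21.6, 21.6 and 21.2 in control, 24.9, 22.9 and 21.9 with Ag2S NPs at 160 μg/mL, 23.5, 21.4 and 21.0 with Ag2S NPs at 320 μg/mL, 22.9, 22.2 and 23.1 with Li-doped Ag2S NPs at 160 μg/mL and 19.3, 19.9 and 16.4 with Li-doped Ag2S NPs at 320 μg/mL. It lay within -0.22 and 0.11 of control on the log2 scale and was not called in any comparison with control. After scaling it was called up at 0.24, 0.20 and 0.25 in all but Li-doped Ag2S NPs at 320 μg/mL, where it was 0.03, so no direction is given for it. ACVR1B, the type I receptor of activin, rose by 0.29 (SE 0.10) and 0.41 (SE 0.09) with Ag2S NPs and by 0.30 (SE 0.10) and 0.30 (SE 0.09) with Li-doped Ag2S NPs at 160 and 320 μg/mL, from 16.5 ± 0.668 FPKM in control (SD, n = 3). After scaling the rises with Li-doped Ag2S NPs were 0.46 and 0.54. The call with Ag2S NPs at 160 μg/mL was lost without replicate 1, 2, 3, 4, 5 or 10 (0.20 to 0.32, adjusted p = 0.059 to 0.133) and in the fits of the 2 groups alone and without the filter. Those with Li-doped Ag2S NPs were lost without replicate 1, 10 or 12 (0.24 to 0.29, adjusted p = 0.0578 to 0.081) at 160 μg/mL and without replicate 1 or 13 (0.23 to 0.26, adjusted p = 0.0573 to 0.0671) at 320 μg/mL.

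Of the other receptors, ACVR1, a type I receptor mostly of bone morphogenetic proteins, fell with Li-doped Ag2S NPs at 160 μg/mL (-0.31, SE 0.10), a call lost after scaling (-0.14) and without replicate 1, 3 or 10 (-0.30 to -0.29, adjusted p = 0.0504 to 0.0522). The activin type II receptor genes ACVR2A, at group means of 1.68 to 2.25 FPKM, and ACVR2B, at 0.763 to 1.19 FPKM, were not called. TGFBR3 encodes betaglycan, which presents TGF-β to its receptors, and stayed under the filter, at 0.83, 0.71 and 0.73 FPKM in control, 0.46, 0.19 and 0.07 and 0.18, 0.13 and 0.18 with Ag2S NPs at 160 and 320 μg/mL, and 1.07, 0.81 and 0.96 and 0.85, 0.51 and 1.49 with Li-doped Ag2S NPs. Its libraries with Ag2S NPs were all below control and below those with Li-doped Ag2S NPs, by -1.50 (SE 0.40, limma adjusted p = 0.0265) and -1.71 (SE 0.34, limma adjusted p = 0.0038) against control in the fit without the filter. ENG, the gene of endoglin, an auxiliary receptor best known in endothelium, had group means of 0.423 to 0.687 FPKM.

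SMAD3 fell in every treated group, while SMAD2 and SMAD4 fell only with Li-doped Ag2S NPs at 320 μg/mL and not after scaling. SMAD3 is a receptor-activated SMAD that binds DNA and lies on chromosome 15 from 67063763 to 67195195. Its FPKM was 78.9, 76.1 and 77.7 in control, 52.7, 53.6 and 39.3 with Ag2S NPs at 160 μg/mL, 50.9, 49.8 and 44.7 with Ag2S NPs at 320 μg/mL, 45.0, 43.3 and 41.9 with Li-doped Ag2S NPs at 160 μg/mL and 39.7, 42.9 and 31.4 with Li-doped Ag2S NPs at 320 μg/mL. No treated library reached the control range. SMAD3 had log2 fold changes of -0.69 and -0.68 with Ag2S NPs and -0.84 and -1.04 with Li-doped Ag2S NPs at 160 and 320 μg/mL (SE 0.11, 0.10, 0.11 and 0.10). For SMAD3 the limma adjusted p were 0.000937, 0.00024, 4.99e-05 and 8.91e-06. After scaling its log2 fold changes were -0.56, -0.52, -0.67 and -0.80. Its leading transcript ENST00000327367, of 9 exons, fell as well, by log2 differences of -0.73, -0.58, -0.81 and -0.99 in the same order. An exon of SMAD3 overlaps the antisense gene AC087482.1.

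SMAD2, the partner of SMAD3 that is activated by the same receptor, had FPKM of 70.3, 68.3 and 64.7 in control, 64.8, 61.9 and 72.8 with Ag2S NPs at 160 μg/mL, 68.3, 71.2 and 67.5 with Ag2S NPs at 320 μg/mL, 69.7, 71.0 and 70.6 with Li-doped Ag2S NPs at 160 μg/mL and 60.4, 56.5 and 47.2 with Li-doped Ag2S NPs at 320 μg/mL. Only the libraries with Li-doped Ag2S NPs at 320 μg/mL were below all others, with replicate 15 the lowest. Its fall there was -0.31 (SE 0.09, limma adjusted p = 0.00845), and -0.07 after scaling, which ended the call. After scaling SMAD2 was called up with Ag2S NPs at 320 μg/mL (0.19, limma adjusted p = 0.048). It was also called up with Li-doped Ag2S NPs at 160 μg/mL (0.23, limma adjusted p = 0.0424). SMAD4, the common partner of the activated SMADs, had FPKM of 51.0, 48.7 and 50.8 in control, 51.4, 52.1 and 44.8 with Ag2S NPs at 160 μg/mL, 47.9, 44.5 and 41.2 with Ag2S NPs at 320 μg/mL, 37.3, 46.9 and 44.4 with Li-doped Ag2S NPs at 160 μg/mL and 46.9, 40.9 and 33.7 with Li-doped Ag2S NPs at 320 μg/mL. It fell with Li-doped Ag2S NPs at 320 μg/mL by a log2 difference of -0.32 (SE 0.11, limma adjusted p = 0.0221), a call lost after scaling (-0.08), with weights per library and without replicate 1, 3 or 15 (-0.31 to -0.20, adjusted p = 0.0559 to 0.0608). ZFYVE9, which encodes the adaptor SARA that presents SMAD2 and SMAD3 to the receptor, fell in the same group (-0.50, SE 0.14), and its scaled value of -0.26 did not pass the test.

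**Figure D3:**
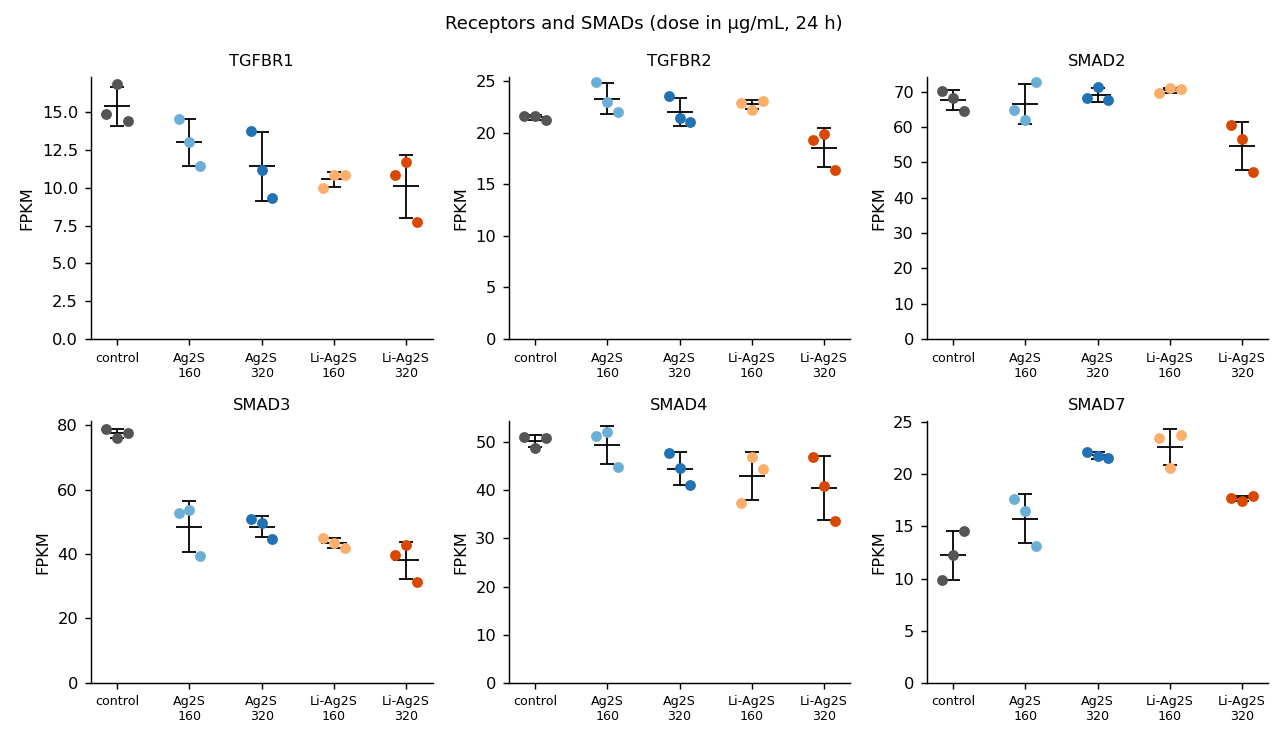
FPKM of the receptor genes TGFBR1 and TGFBR2 and of SMAD2, SMAD3, SMAD4 and SMAD7 (vertical axes, from 0) in each library (points), with the mean and SD of 3 libraries (bars). SMAD3 is below the control range in all treated libraries, SMAD2 is low with Li-doped Ag2S NPs at 320 μg/mL, and SMAD7 is above control in every group except Ag2S NPs at 160 μg/mL, which overlaps it.

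Among the feedback genes, PMEPA1 showed the largest changes. It encodes a membrane protein that keeps SMAD2 and SMAD3 from the receptor adaptor and is itself induced by TGF-β, and it lies on chromosome 20 from 57648392 to 57711536. Its FPKM was 52.0, 56.7 and 47.7 in control, 211, 244 and 198 with Ag2S NPs at 160 μg/mL, 249, 247 and 264 with Ag2S NPs at 320 μg/mL, 173, 144 and 191 with Li-doped Ag2S NPs at 160 μg/mL and 172, 170.1 and 179.8 with Li-doped Ag2S NPs at 320 μg/mL. All treated libraries were above control, and both groups with Li-doped Ag2S NPs were below both groups with Ag2S NPs. PMEPA1 had log2 fold changes of 2.06 and 2.28 with Ag2S NPs and 1.69 and 1.74 with Li-doped Ag2S NPs at 160 and 320 μg/mL (SE 0.11, 0.07, 0.11 and 0.07). For PMEPA1 the limma adjusted p were 1.08e-06, 1.5e-09, 3.48e-07 and 8.09e-09. Its leading transcripts, ENST00000341744 and ENST00000347215, rose in each group, ENST00000341744 by 1.97, 2.19, 1.78 and 1.50 in the order used above. An exon of PMEPA1 overlaps the antisense gene NKILA.

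BAMBI encodes a pseudoreceptor that resembles type I receptors but lacks the kinase. Its FPKM was 1.65, 2.14 and 2.04 in control, 2.84, 5.04 and 4.43 with Ag2S NPs at 160 μg/mL, 4.24, 3.45 and 3.82 with Ag2S NPs at 320 μg/mL, 2.46, 1.36 and 2.01 with Li-doped Ag2S NPs at 160 μg/mL and 2.16, 2.65 and 2.71 with Li-doped Ag2S NPs at 320 μg/mL. Both groups with Ag2S NPs were above all control libraries, while the libraries with Li-doped Ag2S NPs at 160 μg/mL overlapped control and those at 320 μg/mL lay just above it. It rose with Ag2S NPs, 1.01 (SE 0.27, limma adjusted p = 0.0155) at 160 μg/mL and 0.95 (SE 0.18, limma adjusted p = 0.0012) at 320 μg/mL. With Li-doped Ag2S NPs its log2 fold changes were -0.03 (SE 0.27) and 0.35 (SE 0.18), and the latter passed the test only after scaling (0.59, adjusted p = 0.0162). The call at 160 μg/mL with Ag2S NPs was lost without replicate 1 or 5 (0.84 to 0.90, adjusted p = 0.057 to 0.0597).

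The sequences before the start sites of these feedback genes are shown because SMAD3 binds the short box CAGAC. They come from RefSeq promoter windows (GRCh38.p14) for the start nearest to the leading transcript, without bases that GENCODE places in an exon of the gene, and capitals mark CAGAC on either strand.
PMEPA1 (chr20:57710016-57710265, minus strand): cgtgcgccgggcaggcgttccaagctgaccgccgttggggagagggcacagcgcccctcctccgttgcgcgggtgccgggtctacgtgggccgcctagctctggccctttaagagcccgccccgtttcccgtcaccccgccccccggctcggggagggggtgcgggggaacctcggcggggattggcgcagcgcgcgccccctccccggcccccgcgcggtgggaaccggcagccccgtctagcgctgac
BAMBI (chr10:28677271-28677341, plus strand): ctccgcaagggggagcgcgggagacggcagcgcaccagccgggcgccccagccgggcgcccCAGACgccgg
Among 35116 such windows of 250 bases, 38.0% held CAGAC on either strand, 6.57% held the AP-1 motif TGANTCA and 0.182% the palindrome GTCTAGAC. The PMEPA1 window, chosen for ENST00000341744, held none of these motifs. ENST00000347215 of PMEPA1 starts upstream of that window, at 57710589, and the bases before its start are not shown. The full window of BAMBI held CAGAC at 2 places, 1 of them in the 71 bases printed. The other lies among the 179 bases of that window that GENCODE places in an exon of BAMBI. The window of SMAD7, also a feedback gene, lies wholly in an exon of SMAD7 and is not printed. It held CAGAC at 2 places. The RefSeq starts used lie 113 bases from the transcript start for PMEPA1, 179 for BAMBI and 1087 for SMAD7. For SMAD7 the RefSeq start is downstream of the start of ENST00000262158, so its window is not the sequence before that transcript.

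SMAD7 encodes the inhibitory SMAD that blocks the receptor and recruits SMURF ligases to it. It lies on chromosome 18 from 48919853 to 48952052 and had FPKM of 9.85, 12.3 and 14.6 in control, 17.6, 16.5 and 13.1 with Ag2S NPs at 160 μg/mL, 22.1, 21.7 and 21.6 with Ag2S NPs at 320 μg/mL, 23.5, 20.6 and 23.8 with Li-doped Ag2S NPs at 160 μg/mL and 17.7, 17.5 and 17.9 with Li-doped Ag2S NPs at 320 μg/mL. The groups with Ag2S NPs at 320 μg/mL and with Li-doped Ag2S NPs at both doses were above control without overlap. SMAD7 had log2 fold changes of 0.37 and 0.85 with Ag2S NPs and 0.90 and 0.55 with Li-doped Ag2S NPs at 160 and 320 μg/mL (SE 0.15, 0.12, 0.15 and 0.12). For SMAD7 the limma adjusted p were 0.0816, 0.000163, 0.000397 and 0.00254. With Ag2S NPs at 160 μg/mL the call was made after scaling (0.50, adjusted p = 0.0278). Its coding transcript ENST00000262158, of 4428 bases, rose in all 4 groups, by 0.65, 1.26, 1.03 and 0.64. Another coding transcript, ENST00000586093, of 574 bases, is not described here.

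Of the ubiquitin ligases that SMAD7 recruits, SMURF2 fell with Li-doped Ag2S NPs at 320 μg/mL (-0.58, SE 0.13, and -0.34 after scaling, from 10.8 ± 0.212 FPKM in control to 7.19 ± 1.03, SD, n = 3) and SMURF1 was not called, at group means of 14.8 to 18.0 FPKM. The nuclear corepressor gene SKI was not called and had group means of 19.2 to 22.2 FPKM. Its relative SKIL, which TGF-β induces, rose with Ag2S NPs at 320 μg/mL (0.59, SE 0.22), and its log2 fold changes were 0.43 (SE 0.20) with Ag2S NPs at 160 μg/mL and -0.14 (SE 0.20) and -0.26 (SE 0.22) with Li-doped Ag2S NPs. The rise was lost without replicate 1, 3, 7 or 8 (0.48 to 0.61, adjusted p = 0.0774 to 0.126) and without the filter.

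The homeobox repressors TGIF1 and TGIF2, which bind activated SMADs, moved in opposite directions. TGIF2 fell in all 4 comparisons, by log2 differences of -0.53 and -0.60 with Ag2S NPs and -0.97 and -0.70 with Li-doped Ag2S NPs at 160 and 320 μg/mL (SE 0.13, 0.13, 0.13 and 0.13), and its mean FPKM was 14.6 ± 1.12 in control and lowest, 7.43 ± 0.274, with Li-doped Ag2S NPs at 160 μg/mL (SD, n = 3). At 320 μg/mL of the doped particle the fall was -0.46 after scaling. TGIF1 rose by 0.62 (SE 0.07) with Li-doped Ag2S NPs at 160 μg/mL, to 52.6 ± 2.32 FPKM from 34.1 ± 1.33 (SD, n = 3), and by 0.20 to 0.22 in the other groups, or 0.35 to 0.44 there after scaling. Those smaller calls were lost without replicate 1, 2, 5 or 6 (0.20 to 0.21, adjusted p = 0.0624 to 0.106) with Ag2S NPs at 160 μg/mL, without replicate 1, 2 or 8 (0.18 to 0.21, adjusted p = 0.0734 to 0.101) at 320 μg/mL and without replicate 1, 2, 13 or 14 (0.16 to 0.21, adjusted p = 0.0598 to 0.107) with Li-doped Ag2S NPs at 320 μg/mL. TGIF2 shares exons with the readthrough gene TGIF2-RAB5IF. Reads of ENG, ACVR2A, LTBP1, LTBP2, SMURF1, SMURF2 and ZFYVE9 are uncertain in the same way as those of TGFB1, because their exons overlap genes on the other strand, and SMAD4 shares exons with AC091551.1.

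TSC22D1 encodes leucine zipper proteins first found as products of a TGF-β-stimulated gene, and lies on chromosome 13 from 44432143 to 44577147. Its FPKM was 67.4, 67.9 and 68.5 in control, 73.9, 78.6 and 71.5 with Ag2S NPs at 160 μg/mL, 91.1, 84.7 and 85.0 with Ag2S NPs at 320 μg/mL, 207, 197 and 194 with Li-doped Ag2S NPs at 160 μg/mL and 102, 98.0 and 96.6 with Li-doped Ag2S NPs at 320 μg/mL. No group overlapped another, and the libraries with Li-doped Ag2S NPs at 160 μg/mL were far above the rest. TSC22D1 had log2 fold changes of 0.13 and 0.35 with Ag2S NPs and 1.55 and 0.54 with Li-doped Ag2S NPs at 160 and 320 μg/mL (SE 0.06, 0.06, 0.06 and 0.06). For TSC22D1 the limma adjusted p were 0.104, 0.000354, 6.25e-09 and 1.39e-05. After scaling the change with Ag2S NPs at 160 μg/mL was 0.26 and passed the test. Exons of the gene overlap 3 antisense genes, among them TSC22D1-AS1.

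The change of TSC22D1 lay in the shorter of its main transcripts. ENST00000261489 starts 139.7 kb downstream of ENST00000458659, and both have 3 exons, of 3135 and 4820 bases in all. The short transcript had FPKM of 47.6, 46.7 and 47.7 in control, 52.1, 56.5 and 54.4 with Ag2S NPs at 160 μg/mL, 68.6, 65.0 and 66.0 with Ag2S NPs at 320 μg/mL, 182, 172 and 173 with Li-doped Ag2S NPs at 160 μg/mL and 80.3, 79.2 and 80.0 with Li-doped Ag2S NPs at 320 μg/mL. The long transcript had FPKM of 17.6, 17.8 and 17.5 in control, 19.1, 18.9 and 16.0 with Ag2S NPs at 160 μg/mL, 18.0, 16.2 and 16.0 with Ag2S NPs at 320 μg/mL, 11.9, 13.5 and 12.6 with Li-doped Ag2S NPs at 160 μg/mL and 15.3, 14.7 and 12.9 with Li-doped Ag2S NPs at 320 μg/mL. With Li-doped Ag2S NPs at 160 μg/mL the short transcript rose by 1.89 (SE 0.06, limma adjusted p = 2.75e-07) and the long transcript fell, with a log2 fold change of -0.47 (SE 0.10, limma adjusted p = 0.00737). The share of the short transcript was 69.7% ± 0.938 in control and 88.0% ± 0.934 there (SD, n = 3). At 320 μg/mL the short transcript rose by 0.49 (SE 0.05, limma adjusted p = 0.000356) with Ag2S NPs and 0.75 (SE 0.05, limma adjusted p = 3.31e-05) with Li-doped Ag2S NPs, while the long transcript was at -0.07 (SE 0.09, limma adjusted p = 0.638) and -0.30 (SE 0.09, limma adjusted p = 0.045), the latter lost after scaling. Between the particles the short transcript differed by 1.69 (SE 0.06, limma adjusted p = 1.39e-06) at 160 μg/mL and by 0.26 at 320 μg/mL, where 17.5% and 3.91% of all transcripts tested passed the test. Cufflinks estimates these FPKM by dividing reads between transcripts that share exons.

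The start sites of the 2 transcripts carry different sequence and are shown for that reason. They were chosen after the values had been seen. The windows are from RefSeq (GRCh38.p14), and the RefSeq starts lie 13 bases and 0 bases from those of the transcripts.
TSC22D1 short (chr13:44436859-44437108, minus strand): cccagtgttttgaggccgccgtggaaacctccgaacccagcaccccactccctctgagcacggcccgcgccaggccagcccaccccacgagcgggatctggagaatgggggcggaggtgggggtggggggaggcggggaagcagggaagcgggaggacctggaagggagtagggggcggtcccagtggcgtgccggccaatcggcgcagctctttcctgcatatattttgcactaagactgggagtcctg
TSC22D1 long (chr13:44576566-44576815, minus strand): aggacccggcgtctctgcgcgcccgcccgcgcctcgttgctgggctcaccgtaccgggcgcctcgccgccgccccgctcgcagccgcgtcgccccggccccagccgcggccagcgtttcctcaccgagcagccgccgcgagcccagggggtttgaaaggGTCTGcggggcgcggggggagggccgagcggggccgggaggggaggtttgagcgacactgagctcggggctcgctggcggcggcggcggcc
Capitals again mark CAGAC on either strand, which is found at 1 place before the long transcript and at none before the short transcript. Neither window held TGANTCA or GTCTAGAC.

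**Figure D4:**
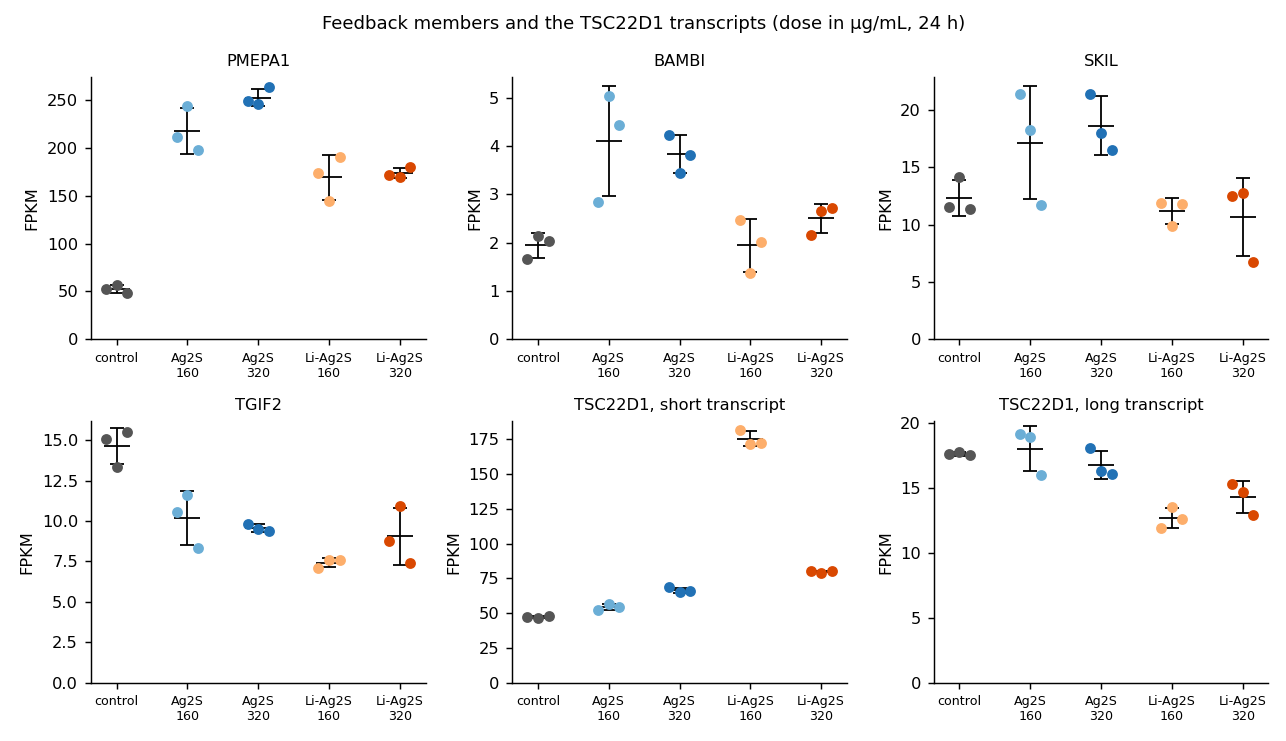
FPKM of the feedback genes PMEPA1, BAMBI, SKIL and TGIF2 and of the short (ENST00000261489) and long (ENST00000458659) TSC22D1 transcripts (vertical axes, from 0) in each library (points), with the mean and SD of 3 libraries (bars). PMEPA1 is above control throughout, BAMBI is raised with Ag2S NPs, and the short TSC22D1 transcript stands at 172 to 182 FPKM with Li-doped Ag2S NPs at 160 μg/mL while the long one is at 11.9 to 13.5.

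The particles, with and without lithium added to silver sulfide, were compared at each dose, in 2 pairs. The paper reports that they also differ in emission intensity and in hydrodynamic diameter, so lithium itself cannot be told apart from these. At 160 μg/mL 7 members were higher and 7 lower with Li-doped Ag2S NPs than with Ag2S NPs (8 and 6 after scaling), against 21.4% and 29.0% of all genes tested, 50.4% in all. The largest of these differences was in TSC22D1, 1.42 (SE 0.06, limma adjusted p = 3.17e-08). FST differed by 1.13 (SE 0.13, limma adjusted p = 3.28e-05), INHBA by 0.67 (SE 0.12, limma adjusted p = 0.000995) and TGFB1 by 0.66 (SE 0.11, limma adjusted p = 0.000447). SMAD7 was also higher (0.53, SE 0.15), as was TGIF1 (0.40, SE 0.07). LTBP2 (-1.08, SE 0.17), BAMBI (-1.04, SE 0.27) and LTBP3 (-0.71, SE 0.10) were lower with the doped particle. These 9 differences were kept whichever library was left out. The other 5 were lost in some of those fits. The difference in FSTL3 (0.32) was lost without replicate 4, 6 or 10 (0.25 to 0.31, adjusted p = 0.0572 to 0.0944). PMEPA1 (-0.36) lost its call without replicate 5 or 11 (-0.28 to -0.25, adjusted p = 0.0807 to 0.0823) and SKIL (-0.57) without replicate 4, 5 or 11 (-0.51 to -0.39, adjusted p = 0.0948 to 0.115). TGIF2 (-0.44) lost its call without replicate 5 (-0.33, adjusted p = 0.0663). TGFBR1 (-0.29) lost its call after scaling and without replicate 1, 2, 3, 4, 5, 10, 11 or 12 (-0.31 to -0.21, adjusted p = 0.0515 to 0.147).

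At 320 μg/mL 3 members were higher and 9 lower with Li-doped Ag2S NPs (3 and 8 after scaling), against 10.1% and 16.1% of all genes, 26.2% in all. FST (0.73, SE 0.15, limma adjusted p = 0.00677) was higher, and PMEPA1 (-0.54, SE 0.07, limma adjusted p = 0.000382), LTBP3 (-0.58, SE 0.07, limma adjusted p = 0.000268) and INHBA (-0.73, SE 0.13, limma adjusted p = 0.00235) were lower, in every fit with a library left out. TGFB1 was higher by 0.32 (SE 0.08), lost without replicate 7, 8 or 13 (0.28 to 0.31, adjusted p = 0.0535 to 0.0615), and TSC22D1 by 0.19 (SE 0.06), lost without replicate 1, 2, 3, 8, 9 or 13 (0.16 to 0.19, adjusted p = 0.0526 to 0.111). SKIL (-0.85, SE 0.22) was lower, a call lost without replicate 7 (-0.74, adjusted p = 0.0668). SMURF2 (-0.54, SE 0.13) was lower, lost without replicate 7 (-0.45, adjusted p = 0.0545), and so was SMAD2 (-0.34, SE 0.09), lost without replicate 8 (-0.32, adjusted p = 0.0575). BAMBI (-0.60, SE 0.18) was lower too, a call lost after scaling and without replicate 7, 8, 9 or 13 (-0.67 to -0.50, adjusted p = 0.0553 to 0.124). LTBP2 (-0.46, SE 0.13) lost its call without replicate 7, 8, 13 or 15 (-0.47 to -0.39, adjusted p = 0.0526 to 0.104). SMAD3 (-0.36, SE 0.10) lost its call without replicate 7 or 8 (-0.34 to -0.32, adjusted p = 0.0821 to 0.0944). For FSTL3 the difference was -0.21 with a 95% interval of -0.38 to -0.03, for SMAD7 -0.30 (-0.57 to -0.03), for TGFBR1 -0.18 (-0.56 to 0.20) and for LTBP4 0.06 (-0.10 to 0.22), none of which passed the test.

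To compare doses within a particle, the 15 libraries entered a common fit. From 160 to 320 μg/mL Ag2S NPs raised 4 members and lowered 0 (6 and 0 after scaling, 7 and 1 at an unadjusted p under 0.05 without scaling), against 4.84% and 7.68% of all genes, 12.5% in all. FSTL3 rose by 0.66 (SE 0.09, limma adjusted p = 0.000283), the one call kept in every fit with a library left out. SMAD7 (0.48, SE 0.13) rose as well, a call lost without replicate 6, 7, 8 or 9 (0.35 to 0.49, adjusted p = 0.0644 to 0.108). INHBA (0.44, SE 0.14) lost its call without replicate 1, 2, 3, 5, 6, 7, 8, 9, 10, 11, 12 or 13 (0.29 to 0.49, adjusted p = 0.0504 to 0.195). TSC22D1 (0.22, SE 0.06) lost its call without replicate 4, 6 or 7 (0.19 to 0.21, adjusted p = 0.0568 to 0.103).

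Li-doped Ag2S NPs raised 1 member and lowered 8 from 160 to 320 μg/mL (2 and 7 after scaling), against 19.6% and 23.3% of all genes, 42.8% in all. TSC22D1 (-1.01, SE 0.06, limma adjusted p = 3.24e-09) and INHBA (-0.96, SE 0.14, limma adjusted p = 5.17e-05) fell the most. SMURF2 (-0.56, SE 0.12), TGIF1 (-0.42, SE 0.07), SMAD2 (-0.37, SE 0.09) and TGFBR2 (-0.30, SE 0.09) fell too, in every fit with a library left out. ZFYVE9 (-0.37, SE 0.13) fell, a call lost without replicate 11, 12 or 15 (-0.38 to -0.26, adjusted p = 0.0572 to 0.115). SMAD7 (-0.35, SE 0.13) fell, a call lost after scaling and without replicate 2, 7, 8, 9, 10, 12, 13, 14 or 15 (-0.36 to -0.31, adjusted p = 0.0503 to 0.11). LTBP3 (0.25, SE 0.09) rose, a call lost without replicate 2, 11, 13, 14 or 15 (0.14 to 0.28, adjusted p = 0.0503 to 0.216). FST, FSTL3 and PMEPA1 differed between the doses of the doped particle by 0.03 (95% interval -0.26 to 0.33), 0.13 (-0.07 to 0.33) and 0.05 (-0.17 to 0.26).

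Whether the step in dose acted differently with the 2 particles was tested as an interaction, the dose difference with Li-doped Ag2S NPs minus that with Ag2S NPs. It passed the test above 0 for 1 member and below 0 for 7 (1 and 7 after scaling), against 20.2% and 19.5% of all genes, 39.7% in all. INHBA had the largest value, as its FPKM went from 20.1 to 27.0 with Ag2S NPs and from 31.5 to 16.3 with Li-doped Ag2S NPs. TSC22D1 went from 74.7 to 86.9 and from 199 to 98.8, and SMAD7 from 15.8 to 21.8 and from 22.6 to 17.7.

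Other genes of the pathway were read from 4 lists in the same fits. Of 40 target genes of TGF-β, 32 were tested, and 25, 29, 27 and 26 rose and 1, 2, 2 and 4 fell in the order Ag2S NPs at 160 and 320 μg/mL and Li-doped Ag2S NPs at 160 and 320 μg/mL. Of all genes tested 11.5%, 16.2%, 22.6% and 17.0% rose and 23.8%, 36.2%, 40.6% and 44.6% fell in that order. After scaling 26, 29, 28 and 28 of the target genes rose and 1, 2, 2 and 3 fell. The medians of their log2 fold changes were 0.81, 1.27, 1.32 and 1.02, against -0.14, -0.19, -0.19 and -0.26 over all genes. TGM2, a transglutaminase that can help release latent TGF-β, rose by 5.54 and 6.63 with Ag2S NPs and 4.14 and 5.90 with Li-doped Ag2S NPs at 160 and 320 μg/mL. MMP13, a collagenase gene, rose with Ag2S NPs (0.27 and 0.44) and fell with Li-doped Ag2S NPs, with log2 fold changes of -2.89 and -0.73.

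Of 22 genes that activate or restrain TGF-β outside the cell, 15 were tested, and 6, 8, 4 and 6 rose while 3, 4, 6 and 5 fell in that order. The falls made up 20.0%, 26.7%, 40% and 33.3% of the list, none above the share of all genes that fell. The rises made up 40%, 53.3%, 26.7% and 40%, where 11.5%, 16.2%, 22.6% and 17.0% of all genes rose. With Li-doped Ag2S NPs at 160 μg/mL the 4 rises were near the share of all genes. After scaling 7, 8, 4 and 8 rose and 3, 3, 4 and 4 fell. THBS1, the gene of thrombospondin-1, which activates latent TGF-β, rose by 0.85 and 2.48 with Ag2S NPs and 4.31 and 2.33 with Li-doped Ag2S NPs at 160 and 320 μg/mL. ITGB6, the β chain of the epithelial integrin that frees TGF-β, rose by 1.37 (SE 0.09) and 1.50 (SE 0.10) with Ag2S NPs, fell with Li-doped Ag2S NPs at 160 μg/mL (-1.07, SE 0.09) and rose at 320 μg/mL (0.35, SE 0.10). HTRA1, a secreted protease, rose with Ag2S NPs at 320 μg/mL (2.17, SE 0.31) and with Li-doped Ag2S NPs at both doses (3.50 and 3.19). DCN, a proteoglycan gene that binds TGF-β and is also one of the fibroblast markers, fell in all 4 comparisons (-1.66 and -3.28 with Ag2S NPs and -5.58 and -2.51 with Li-doped Ag2S NPs).

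Inside the cell, 32 of 33 genes that control the receptors and SMADs were tested, and 2, 4, 6 and 3 rose while 7, 13, 16 and 21 fell. The falls made up 21.9% and 40.6% of the list with Ag2S NPs, near the 23.8% and 36.2% of all genes, and 50% and 65.6% with Li-doped Ag2S NPs, where 40.6% and 44.6% of all genes fell. After scaling 4, 6, 8 and 6 rose and 4, 5, 12 and 11 fell. SMAD6, an inhibitory SMAD gene of the bone morphogenetic protein branch, fell by log2 differences of -1.20 and -1.44 with Ag2S NPs and -1.94 and -1.32 with Li-doped Ag2S NPs. FKBP1A, whose product FKBP12 holds the type I receptor inactive, rose by 0.74 and 1.08 with Ag2S NPs and 0.99 and 1.04 with Li-doped Ag2S NPs. PPP1R15A, which encodes a phosphatase subunit that SMAD7 brings to the receptor, rose with Li-doped Ag2S NPs at 160 μg/mL (1.38, SE 0.09) and fell with Ag2S NPs at 160 μg/mL (-0.56, SE 0.09). Its falls at 320 μg/mL, -0.30 with Ag2S NPs and -0.34 with Li-doped Ag2S NPs, were lost after scaling. Of 16 further ligands and receptors, 3 passed the filter at 160 μg/mL and 2 at 320 μg/mL. GDF15 passed only through its libraries with Li-doped Ag2S NPs at 160 μg/mL and is not described. GDF11, which encodes an activin-like ligand, rose by 0.88 and 0.85 with Ag2S NPs and 0.99 and 1.18 with Li-doped Ag2S NPs, and FSTL1, which encodes a secreted glycoprotein of the follistatin type, by 0.83 and 1.22 with Ag2S NPs and 0.76 and 1.09 with Li-doped Ag2S NPs.

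**Figure D5:**
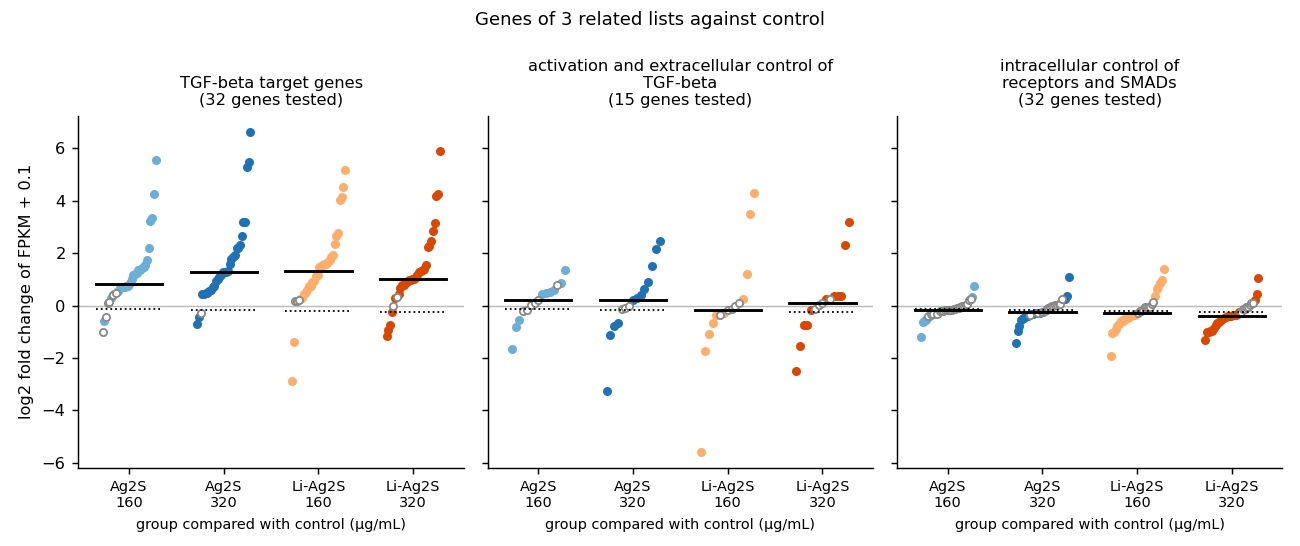
Log2 fold change of FPKM + 0.1 against control (vertical axis) for each gene tested in 3 lists of related genes, in the 4 treated groups. Filled points have an adjusted p under 0.05, open points do not, full lines are the medians of the lists and dotted lines the medians of all genes. The medians of the target genes, 0.81 to 1.32, lie above those of all genes in each group, and the medians of the genes that act on receptors and SMADs inside the cell, -0.17 to -0.38, are below 0, as are those of all genes, -0.14 to -0.26.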

How the data were processed

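RNA of 15 libraries was sequenced as paired reads of 150 bases. The authors aligned reads with TopHat and computed FPKM per gene and transcript with Cufflinks 2.1.1 and Cuffdiff, with corrections for multiply mapped reads and fragment bias, and the deposited FPKM are rounded to 2 decimals. Which genome build and annotation the reads were aligned to was not stated in the labels or methods read here. Deposited columns of log2 ratios, p-values and q-values from the authors' own comparisons were not used. Because FPKM keep no read counts, the depth of a library, and with it the precision of a single value, is unknown.

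Members were matched by symbol. All 18179 genes and all 117036 transcript identifiers were found in GENCODE release 29 (GRCh38), from which positions were taken. Promoter windows came from RefSeq (GRCh38.p14). log2(FPKM + 0.1) was fitted with limma 3.58.1 (R 4.3.3), with a trend in the prior variance, over the 9 libraries of a dose. The fit for dose and for the interaction joined the tables of both doses, whose control values are identical, over all 15 libraries. Both were run after genes with a mean FPKM below 1 in the libraries of the fit had been left out. The tests were two-sided and adjusted over all genes tested by the method of Benjamini and Hochberg. Transcripts were fitted in the same way at each dose. The procedure was tested on simulated data with known changes in 200 genes of a single group. The other genes were not shifted there, so the simulation could not test the effect of scaling.

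Libraries were grouped by the submitters' labels. Values of every library are given for members called with a log2 fold change of at least 1 in size in a comparison with control and for the ligands, TGFBR1, TGFBR2, SMAD2, SMAD3, SMAD4 and SMAD7, and up to 4 genes with the smallest p per list and comparison could be named from other lists. Some genes that this rule would name are not reported here. The members and lists were chosen with earlier results of these data known. The alternatives were pseudocounts of 1 and 0.01, no filter, a minimum mean of 5 FPKM, median ratio scaling, robust variance moderation, weights per library, leaving out each library, fitting 2 groups alone and fitting all 15 libraries. Figures were drawn with matplotlib 3.10.9 (Python 3.11.15).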

Additional observations from a re-analysis of the deposited data

Results flagged for a closer look

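The effect of raising the dose from 160 to 320 μg/mL differed between the particles for 8 members by the interaction test in limma, where 20.2% of all genes tested passed above 0 and 19.5% below 0. The interaction value is the log2 difference between doses with Li-doped Ag2S NPs minus that with Ag2S NPs. It was -1.40 (SE 0.20, limma adjusted p = 4.78e-05) for the activin gene INHBA and -1.23 (SE 0.08, limma adjusted p = 2.61e-08) for TSC22D1. For SMAD7 it was -0.83 (SE 0.18, limma adjusted p = 0.00222) and for the ligase gene SMURF2 -0.73 (SE 0.17, limma adjusted p = 0.0027). In all 4 genes the difference between doses was below 0 with Li-doped Ag2S NPs. FSTL3 had -0.53 (SE 0.13, limma adjusted p = 0.00444), where the dose difference was 0.66 with Ag2S NPs and 0.13 with Li-doped Ag2S NPs. TGIF1 had -0.43 (SE 0.10, limma adjusted p = 0.0032) and SMAD2 -0.43 (SE 0.12, limma adjusted p = 0.0104). These 7 calls were kept whichever library was left out. LTBP2 was the one member above 0, at 0.62 (SE 0.22, limma adjusted p = 0.0335), and its call was lost without replicate 4, 5, 8, 9, 10 or 14 (0.47 to 0.61, adjusted p = 0.0611 to 0.0903).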

How the results depend on the processing

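No paired analysis was possible because the replicate numbers run from 1 to 15 and no 2 groups share a number. Among the values of members that had passed the test, one turned its direction under an alternative, LTBP3 with Li-doped Ag2S NPs at 320 μg/mL, which was 0.020 after median ratio scaling, a setting that sets the median of all genes near 0. Several values that had not passed the test, such as that of TGFBR2 in the same comparison, also went from below to above 0 with it. With that scaling 14 members rose with Ag2S NPs at 160 μg/mL, 3 fell with Li-doped Ag2S NPs at 320 μg/mL and 2 rose between the doses of Li-doped Ag2S NPs. Over all genes it gave 1681 falls with Ag2S NPs at 160 μg/mL (2847 without it) and 2678 at 320 μg/mL (4309 without it), and 3255 rises and 3197 falls with Li-doped Ag2S NPs at 320 μg/mL (2018 and 5313 without it).

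With weights per library 15 members rose and 4 fell with Ag2S NPs at 160 μg/mL, 1 fell between the doses of Ag2S NPs, 3 rose between those of Li-doped Ag2S NPs and 3 passed above 0 in the interaction. Over all genes the weights gave 4368 falls with Ag2S NPs at 160 μg/mL (2847 without them), 1047 rises and 1951 falls between the doses of Ag2S NPs (579 and 918 without them), and 2002 genes higher with Li-doped Ag2S NPs than with Ag2S NPs at 320 μg/mL (1203 without them). With no filter 4 members fell with Ag2S NPs at 160 μg/mL, and in the fit of 2 groups alone 5 fell with Ag2S NPs at 320 μg/mL. The cause of these shifts was not tested.

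Leaving out 1 library at a time, members that rose with Ag2S NPs at 160 μg/mL numbered 5 (without replicate 5) to 11 (without replicate 6), members that fell 2 to 4, and genes that fell 1820 (without replicate 2) to 3062. Members that rose with Li-doped Ag2S NPs at 320 μg/mL numbered 7 (without replicate 1) to 11. Members lower with Li-doped Ag2S NPs than with Ag2S NPs numbered 3 (without replicate 5) to 11 (without replicate 6) at 160 μg/mL and 4 (without replicate 7) to 11 (without replicate 14) at 320 μg/mL, where 1 (without replicate 8) to 3 were higher. Genes higher at 320 μg/mL numbered 669 (without replicate 7) to 1322 and genes lower 1051 (without replicate 7) to 2252. Between the doses of Ag2S NPs 1 (without replicate 6) to 5 members rose, with 332 (without replicate 9) to 713 genes up and 584 (without replicate 7) to 1199 down, and between those of Li-doped Ag2S NPs and above 0 in the interaction 0 to 1 members. Without replicate 15, which had the highest summed FPKM, 11 members rose and 7 fell with Li-doped Ag2S NPs at 320 μg/mL. Both pseudocounts and robust moderation each changed the call of at most 2 gene-level values of members. Depth is unknown, so it could not be set against the values of low genes such as TGFB2, TGFB3 and INHBB.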
